A study of Mus musculus with 18 samples.

Results

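The 37 genes carried by the mouse mitochondrial genome were examined in small RNA libraries from 3 cell fractions of the brain. They were taken as every Ensembl row whose name starts with mt-, and comprised 22 tRNA genes, 2 rRNA genes and 13 protein-coding genes among 203513 features in the count table, of which 146263 were Ensembl features. The libraries came from mice aged 10 months on a C57BL/6 background that carried on both copies of Atxn2 either the wild-type allele (WT) or a knocked-in expansion of its CAG repeat (Atxn2-CAG100-KIN, KIN below), a model of spinocerebellar ataxia type 2 in which every cell of the body carries the allele. Astrocytes, microglia and neurons of each genotype gave 3 libraries each, 18 in all, from untreated mice, and each group was labelled with replicate numbers 1 to 3. Per the study's methods, magnetic beads took microglia (surface protein CD11b) and then astrocytes (surface antigen ACSA-2) out of a dissociated brain, and neurons were what flowed through at the end. The repeat length itself cannot be read from counts of short reads, so the genotype was taken from the labels.

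Mitochondria keep a small circular genome of their own, from which 13 subunits of the respiratory chain and of ATP synthase are translated by a separate set of ribosomes. Both strands are transcribed into long precursors, and tRNAs punctuate these precursors between the rRNA and protein-coding genes, so that cutting out the tRNAs at both ends also releases the mRNAs and rRNAs. Each mitochondrial tRNA then receives base modifications and a CCA end, and is charged by a nuclear-encoded synthetase imported into the organelle. Brain cells differ in how much they rely on oxidative phosphorylation, and the tRNA genes of this genome are a frequent site of mutations in mitochondrial disease.

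On the GRCm39 build the mitochondrial chromosome (M) spans 16299 bases. The plus strand of the reference holds 14 of the tRNA genes, both rRNA genes and 12 of the protein-coding genes, and the minus strand holds 8 tRNA genes (mt-Tq, mt-Ta, mt-Tn, mt-Tc, mt-Ty, mt-Ts1, mt-Te and mt-Tp) and mt-Nd6. The tRNA genes are 59 to 75 bases long and the protein-coding genes 204 to 1824. The tRNAs on which the results turn are printed here from GRCm39 in the sense of the RNA, with T for U and the anticodon in capitals. They are the tRNAs with the highest counts (mt-Ts2 and mt-Tv, the serine tRNA of AGY codons and the valine tRNA, and mt-Ti for isoleucine), those that differed most clearly between fractions (mt-Tn for asparagine, mt-Tw for tryptophan) and those with the smallest p-values between KIN and WT astrocytes (mt-Tp for proline, mt-Te for glutamate, mt-Tr for arginine, mt-Ta for alanine).
mt-Ts2: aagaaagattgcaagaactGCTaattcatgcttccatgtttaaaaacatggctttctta
mt-Tv: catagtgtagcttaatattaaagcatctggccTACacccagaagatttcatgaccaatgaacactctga
mt-Ti: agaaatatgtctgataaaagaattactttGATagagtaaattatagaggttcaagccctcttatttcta
mt-Tn: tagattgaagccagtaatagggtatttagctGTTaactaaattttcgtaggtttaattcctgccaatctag
mt-Tw: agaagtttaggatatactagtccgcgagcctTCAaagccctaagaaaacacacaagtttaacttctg
mt-Tp: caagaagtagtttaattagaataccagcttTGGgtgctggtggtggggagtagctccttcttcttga
mt-Te: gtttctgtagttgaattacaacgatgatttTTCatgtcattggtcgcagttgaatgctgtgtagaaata
mt-Tr: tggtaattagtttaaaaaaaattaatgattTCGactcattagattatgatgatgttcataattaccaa
mt-Ta: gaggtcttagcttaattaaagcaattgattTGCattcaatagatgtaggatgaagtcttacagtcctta
Of these, mt-Ts2 (chrM:11613-11671, plus strand) is the shortest, as it lacks the D arm that other tRNAs have. mt-Tv (chrM:1025-1093) lies between the 2 rRNA genes, mt-Rnr1 and mt-Rnr2. mt-Ti (chrM:3706-3774) overlaps mt-Tq on the opposite strand by 3 bases. mt-Tw (chrM:4950-5016, plus strand) is followed by a run of minus-strand tRNAs that includes mt-Ta (chrM:5018-5086) and mt-Tn (chrM:5089-5159). mt-Te (chrM:14071-14139) and mt-Tp (chrM:15356-15422) are also read from the minus strand, and mt-Tr (chrM:9808-9875) from the plus strand.

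The libraries held 1211118 to 4316748 counts, lowest in WT neurons, and every one of the 37 genes had counts in every library, so no gene was limited by absence. Marker transcripts fixed for this work were at their highest in the fractions named for them, with summed levels of 7 astrocyte genes at 80.0 to 279.5 CPM, the count divided by the library total and scaled in the usual way, in astrocytes and at most 11.8 elsewhere, and of 7 microglia genes at 58.8 to 140.0 in microglia and at most 3.58 elsewhere. For neurons the markers disagreed. The 7 neuronal transcripts summed to 11.9 to 35.5 CPM in the neuron fraction and 5.57 to 25.4 in astrocytes, whereas the 3 neuronal miRNAs (miR-124-3p, miR-128-3p and miR-138-5p) summed to 48.7 to 228 CPM in neurons and 1036 to 3150.5 in astrocytes. The transcripts of Rbfox3, a defining neuronal gene, had 1 count in all 6 neuron libraries together, so the fraction is called neurons here by its label. In the same fraction, 3 hemoglobin genes and miR-451a, red blood cell markers, summed to 58.1 to 324 CPM, against at most 118 elsewhere. Mice of the 2 genotypes were paired by sex per the methods, but Xist, the RNA of the inactive X chromosome, had 4 or 5 counts in KIN replicate 1 of each fraction and 12 to 37 in WT replicate 1. A bulk fraction cannot tell fewer mitochondria-rich cells from less mitochondrial RNA per cell.

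One library stood apart in the genes examined here. WT neuron replicate 2 had 4.03% of its counts on mitochondrial tRNA, against 0.238% and 0.555% in the other WT neuron libraries and 0.605% to 0.723% in the 3 KIN neuron libraries. It also had 10.6% of counts on cytoplasmic tRNA gene copies, against 2.94% and 4.54%, and its oligodendrocyte markers (6 transcripts and 2 miRNAs) summed to 141 CPM, against 12.4 and 9.16. Their part in the results below was not tested. For WT neurons against each other group, the numbers of genes called and the tRNA medians are given with and without this library. Other values that use WT neurons, among them marker sums and differences of KIN effects, include it unless stated.

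**Figure D1:**
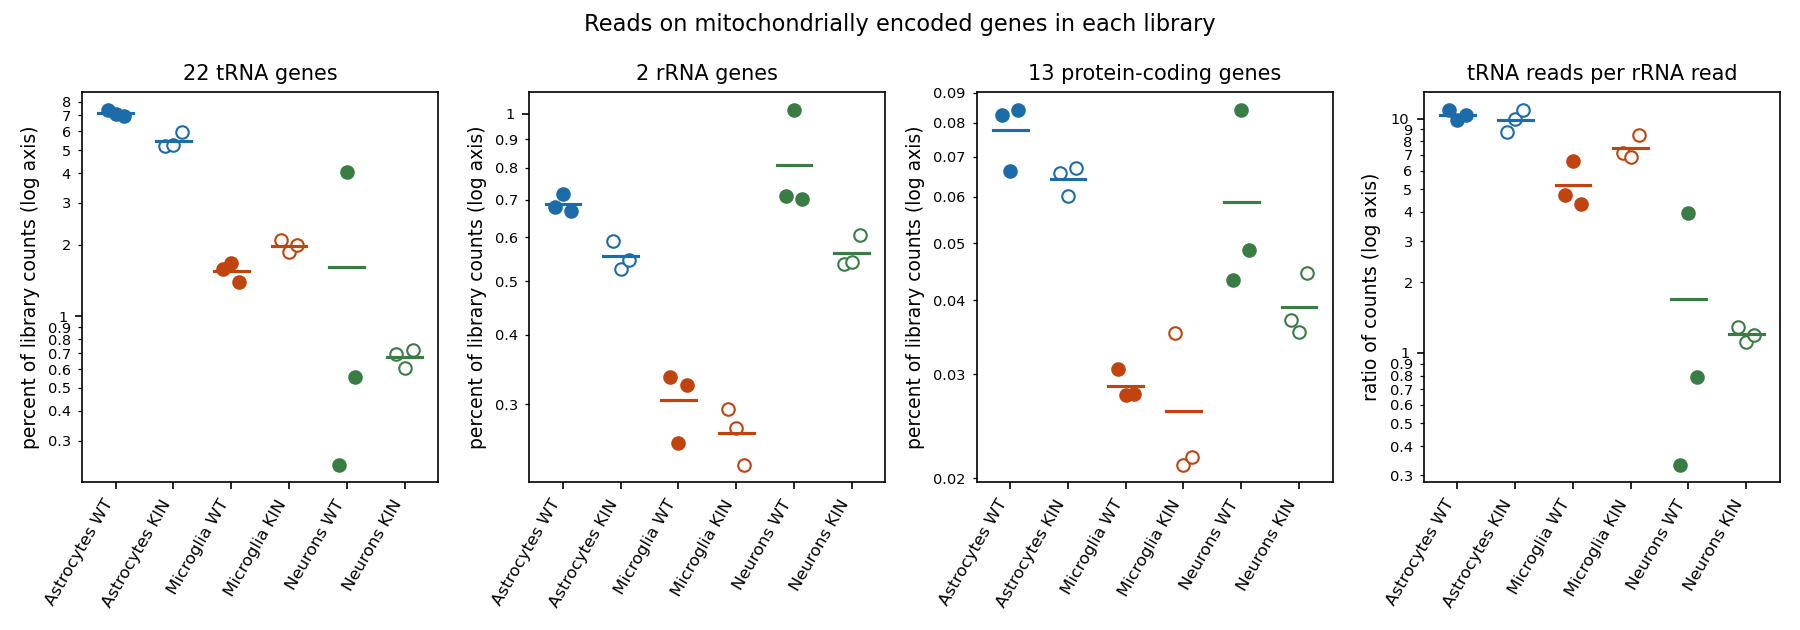
Percent of library counts on the 22 tRNA, 2 rRNA and 13 protein-coding mitochondrial genes, and tRNA reads per rRNA read, on log axes. Each point is 1 library (filled WT, open KIN) and each line the mean of 3 libraries. Astrocytes hold the highest tRNA shares, neurons the lowest apart from 1 WT library at 4.03%, and rRNA is lowest in microglia.

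The 3 classes of mitochondrial RNA did not follow each other across fractions. Mitochondrial tRNA took 7.14% ± 0.234 of counts in WT astrocytes, 1.56% ± 0.143 in WT microglia and 1.61% ± 2.10 in WT neurons (mean ± SD, n = 3 each). In KIN libraries the values were 5.47% ± 0.426, 1.98% ± 0.109 and 0.673% ± 0.0613. Thus tRNA was at its highest in astrocytes of both genotypes, with no overlap with another fraction, and microglia lay above neurons without overlap in KIN but not in WT, where replicate 2 of neurons exceeded all microglia libraries.

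The 12S and 16S rRNAs of the mitochondrial ribosome (mt-Rnr1 and mt-Rnr2) gave another order. They took 0.690% ± 0.0258 of counts in WT astrocytes, 0.306% ± 0.0435 in WT microglia and 0.810% ± 0.179 in WT neurons. In KIN the values were 0.555% ± 0.0329, 0.267% ± 0.0306 and 0.561% ± 0.0389. Microglia were lowest in both genotypes, and astrocytes and neurons overlapped.

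Fragments of the 13 mRNAs were rare, at 0.0776% ± 0.00987, 0.0287% ± 0.00171 and 0.0586% ± 0.0221 of counts in WT astrocytes, microglia and neurons, and at 0.0643% ± 0.00370, 0.0260% ± 0.00801 and 0.0390% ± 0.00487 in KIN. Their order resembled that of the rRNAs in that microglia were lowest. Within WT libraries, there were 10.9, 9.87 and 10.4 tRNA reads per rRNA read in astrocytes and 4.72, 6.57 and 4.31 in microglia. In WT neurons the ratio was 0.334, 3.96 and 0.791, and in KIN neurons 1.29, 1.12 and 1.19. WT neuron replicates 1 and 3 thus held more rRNA than tRNA reads, and the KIN neuron libraries slightly fewer. The ratio of rRNA to protein-coding reads spanned a narrower range, from 7.96 to 16.5 over all 18 libraries. It too was higher in neurons (12.1 to 16.5) than in astrocytes (7.96 to 10.8) without overlap, and microglia (8.34 to 12.9) overlapped with both.

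Mitochondrial tRNA also made up different parts of all tRNA reads. In WT astrocytes it accounted for 39.7% ± 0.743 of mitochondrial and cytoplasmic tRNA counts together, and in KIN astrocytes for 31.0% ± 1.70 (n = 3 each). The corresponding values were 13.8% ± 0.808 and 11.4% ± 1.31 in WT and KIN microglia, and 15.3% ± 10.8 and 11.6% ± 1.80 in neurons. The value of 27.6% in WT neuron replicate 2 lay above the other WT neuron libraries, at 7.47% and 10.9%.

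**Figure D2:**
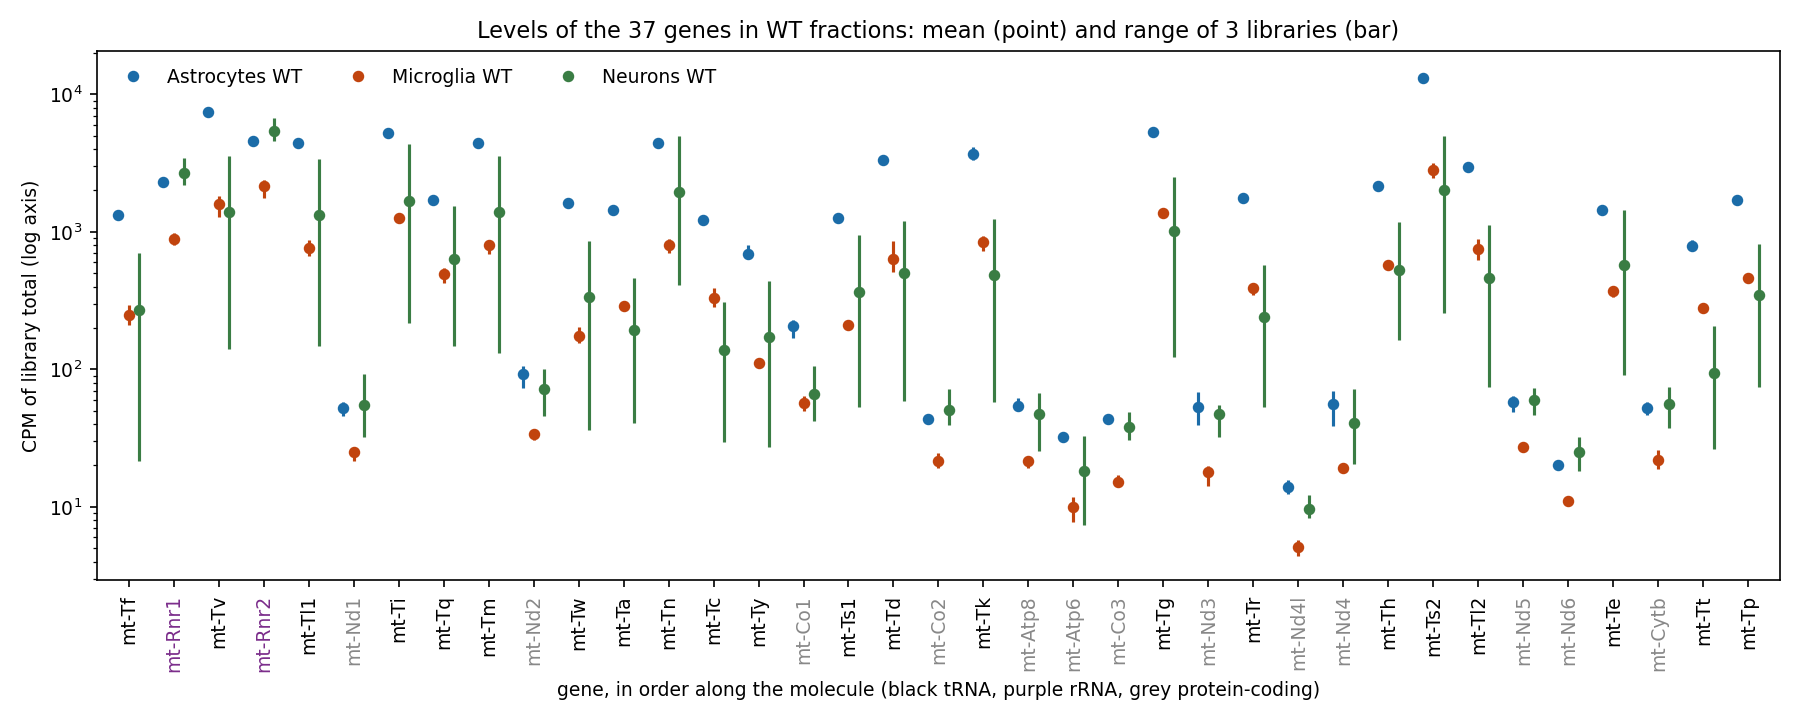
Level of each of the 37 genes in WT fractions, in CPM of the library total on a log axis, with genes in their order along the molecule. Points are means and bars the range of 3 libraries. Neuron bars are long for tRNA genes and short for rRNA genes, and microglia lie below astrocytes at all 37 genes.

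Per length, tRNAs stood above the rRNAs, and the rRNAs above the protein-coding genes. Over the 18 libraries, mt-Ts2 led with a mean of 94990.4 CPM per kb, followed by mt-Tv (45383), mt-Tg for glycine (34424) and mt-Ti (34415), and the lowest tRNA was mt-Ty for tyrosine (4104). mt-Rnr2 had 2262 and mt-Rnr1 1817 CPM per kb. Protein-coding genes ranged from 23.8 for mt-Nd5, a complex I subunit, to 170.1 CPM per kb for the short ATP synthase gene mt-Atp8, which shares 43 bases with mt-Atp6. These are levels of short reads, and a tRNA is close to the size range of the libraries while an mRNA is seen through its fragments only.

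The comparison of WT fractions asked how the levels differ by cell type. Fold changes below are log2 values from edgeR fits with TMM factors, and calls needed both an adjusted p no higher than 0.05 and a log2 fold change of 1 or more in either direction. Levels in single libraries are CPM of the library total without TMM factors. WT microglia lay below WT astrocytes at all 37 genes with no overlap, where 29.2% of the features tested did, and 32 of 37 were called lower, where 19.3% of the 6397 features tested were. The called genes were all 22 tRNAs, mt-Rnr1 and 9 of 13 protein-coding genes. The median log2 fold change was -2.06 over tRNAs, -1.13 over the rRNAs and -1.31 over protein-coding genes, against -0.22 over all features tested. The 3 medians were negative under every other scaling tried except that to the mitochondrial pool itself, which gave -0.13, 0.84 and 0.62. That pool was mostly tRNA, at a mean of 90.3% in WT astrocytes and 82.2% in WT microglia. Scaling to it therefore holds the tRNA median near 0.

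mt-Tw, the tryptophan tRNA, was measured at 1596, 1756 and 1528 CPM in WT astrocytes and 163, 202 and 156 in WT microglia, and fell by 3.09 on the log2 scale (SE 0.252, adjusted p = 9.41e-06, edgeR). For mt-Tn the values were 4398, 4612 and 4198 against 888, 704 and 794, a log2 fold change of -2.36 (SE 0.177). mt-Ts1, the serine tRNA of UCN codons, had 1255, 1334 and 1207 CPM against 209, 209 and 215, and a log2 fold change of -2.47 (SE 0.205). All 3 were several-fold below astrocytes in each microglia library.

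mt-Ta was at 1441, 1468 and 1399 CPM in WT astrocytes and 302, 294 and 269 in WT microglia, with a log2 fold change of -2.19 (SE 0.205). mt-Tl1, the leucine tRNA of UUR codons and the site of the best known mutation of mitochondrial encephalomyopathy, had 4370.0, 4655 and 4215 CPM against 762, 873 and 667, with a log2 fold change of -2.39 (SE 0.228). The same contrast was smaller for the ribosomal RNAs. mt-Rnr1 had 2286, 2356 and 2288 CPM against 975, 799 and 906, and fell by 1.26 (SE 0.173, adjusted p = 3.27e-04, edgeR). mt-Rnr2 had 4521, 4832 and 4409 CPM against 2385, 1759.9 and 2347, a log2 fold change of -0.99 (SE 0.165, adjusted p = 0.00122, edgeR) just under the size needed for a call.

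Among protein-coding genes, mt-Co1, the catalytic subunit of cytochrome c oxidase and the most abundant of them, had 229, 169 and 218 CPM in WT astrocytes and 64.2, 57.6 and 49.4 in WT microglia, and fell by 1.72 (SE 0.246). The lowest contrast was at mt-Nd6, the complex I subunit of the minus strand, with 19.1, 20.9 and 20.04 CPM against 10.7, 11.2 and 11.5 (log2 fold change -0.73, SE 0.326, adjusted p = 0.104, edgeR), which was not called. mt-Nd2 and mt-Nd5, also of complex I, had 98.0, 73.6 and 106 CPM against 36.0, 35.4 and 30.8, and 62.0, 49.0 and 63.5 against 26.2, 27.9 and 28.1. Besides mt-Rnr2 and mt-Nd6, the genes not called were mt-Co2, mt-Nd1 and mt-Nd5, with log2 fold changes of -0.91, -0.94 and -0.96. In KIN libraries, which the WT fits did not use, microglia lay below astrocytes without overlap at 35 of 37 genes, where 31.6% of 4570 features did, and the exceptions were mt-Nd5 and mt-Nd6.

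WT neurons against WT astrocytes separated tRNA from the other classes. All 22 tRNAs had a negative log2 fold change, with a median of -2.46, whereas the rRNAs had a median of 0.02 and protein-coding genes of -0.37, against -0.50 over all features. In total 11 of 37 genes were called lower (10 tRNAs and mt-Co1), where 18.5% of 5916 features were, and none was called higher. Without WT neuron replicate 2 the count was 25, namely all 22 tRNAs, mt-Co1, mt-Atp6 and mt-Nd4, where 23.3% of features were called lower, and the tRNA median was -4.52. Without WT astrocyte replicates 1, 2 or 3 it was 3, 3 and 2 (12.7%, 20.9% and 11.2% of features), and without WT neuron replicates 1 or 3 it was 6 and 2 (12.1% and 10.8%). With the replicate number as a block it was 23, with all 22 tRNAs and 1 protein-coding gene, where 22.8% of features were called lower. Under TMM factors from mature miRNA, which moved the median of all features from -0.50 to 1.79, 13 genes were called higher and 2 lower, where 49.5% and 3.01% of features were, and the tRNA median was -0.47. The tRNA median lay below the rRNA median under each scaling. A scaling shifts all genes of a library alike, so this order could hardly have changed.

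mt-Tt, the threonine tRNA, had 872, 740.3 and 767 CPM in WT astrocytes and 26.4, 205 and 49.1 in WT neurons, and fell by 3.25 on the log2 scale (SE 0.707, adjusted p = 0.0119, edgeR), or by 4.57 without WT neuron replicate 2. mt-Tc, the cysteine tRNA, had 1256, 1159 and 1241 CPM against 29.7, 310.2 and 75.3, with a log2 fold change of -3.31 (SE 0.761) that became -4.72 without it. The library with the highest level in both was neuron replicate 2, and even that lay below every astrocyte library.

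mt-Ta fell by 3.06 (SE 0.812), with 40.5, 458 and 80.5 CPM in WT neurons. mt-Tr, at 1849.6, 1638 and 1757 CPM in WT astrocytes, had 52.8, 573 and 98.2 in WT neurons and fell by 3.02 (SE 0.805). mt-Co1 had 42.1, 106 and 50.4 CPM in WT neurons and fell by 1.81 (SE 0.421, adjusted p = 0.0152, edgeR), the only protein-coding gene past the test with all libraries. mt-Ts2 had 13849.9, 12802 and 12907 CPM in WT astrocytes against 256, 4942 and 812, and mt-Tv 8051, 6996 and 7429 against 140.4, 3534 and 516. Neither overlapped with astrocytes, although the levels in WT neurons were far apart from each other. For mt-Tn and mt-Te the ranges did overlap, since neuron replicate 2 reached 4933 and 1453 CPM.

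Neither rRNA differed beyond its error between these fractions. mt-Rnr1 had 2191, 3459 and 2416 CPM in WT neurons and a log2 fold change of 0.02 (SE 0.245), and mt-Rnr2 had 4933, 6716 and 4597 CPM and 0.03 (SE 0.220). The sign of both turned without WT neuron replicate 2 (-0.19 and -0.14), with no filter on low counts and in 1 fit of all 18 libraries. mt-Nd2, mt-Nd5 and mt-Nd6 had 45.4, 100.2 and 70.0, 46.2, 73.1 and 60.9, and 18.2, 32.2 and 24.2 CPM in WT neurons and overlapped with astrocytes. In KIN libraries neurons lay below astrocytes without overlap at 27 of 37 genes (22 tRNAs and 5 protein-coding genes), where 27% of 5001 features did, and above at mt-Nd6, where 34.6% did.

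Between WT neurons and WT microglia the classes moved apart. Both rRNAs and mt-Nd3, a complex I subunit, were called higher in neurons (3 of 37 genes, where 13.5% of 5166 features were). The median log2 fold change was 1.27 over rRNAs, 0.94 over protein-coding genes and -0.39 over tRNAs, against -0.15 over all features, and under TMM factors from mature miRNA, which raised the median of all features to 1.85, the tRNA median was 1.33. Without WT neuron replicate 2, both rRNAs and mt-Nd3 were again called higher, where 15.7% of features were, and 21 tRNAs were called lower, where 18.7% were, with a tRNA median of -2.19. Without WT microglia replicate 1 or 3, 1 gene was called higher (7.59% and 9.48% of features). With the replicate number as a block both rRNAs were called higher (14.3% of features) and 12 tRNAs lower (16.1%). mt-Rnr1 rose by 1.40 (SE 0.277, adjusted p = 0.00486, edgeR) and mt-Rnr2 by 1.15 (SE 0.252, adjusted p = 0.00838), and both lay above microglia in every neuron library.

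mt-Nd3 had 19.9, 14.1 and 19.6 CPM in WT microglia and 55.3, 54.7 and 32.1 in WT neurons, a log2 fold change of 1.23 (SE 0.408, adjusted p = 0.047, edgeR). mt-Cytb, the complex III subunit, had 25.9, 19.0 and 20.5 against 57.0, 74.6 and 37.3 CPM, and mt-Co3, of cytochrome c oxidase, 17.0, 14.1 and 14.5 against 34.7, 49.1 and 30.8. Their log2 fold changes of 1.18 (SE 0.410, adjusted p = 0.0559) and 1.14 (SE 0.400, adjusted p = 0.0578) by edgeR did not pass, although the ranges did not overlap. In KIN libraries, neurons lay below microglia without overlap at 22 genes (21 tRNAs and mt-Co1), where 23.3% of 4880 features did, and above at 9 genes (both rRNAs and 7 protein-coding genes), where 39.9% did.

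**Figure D3:**
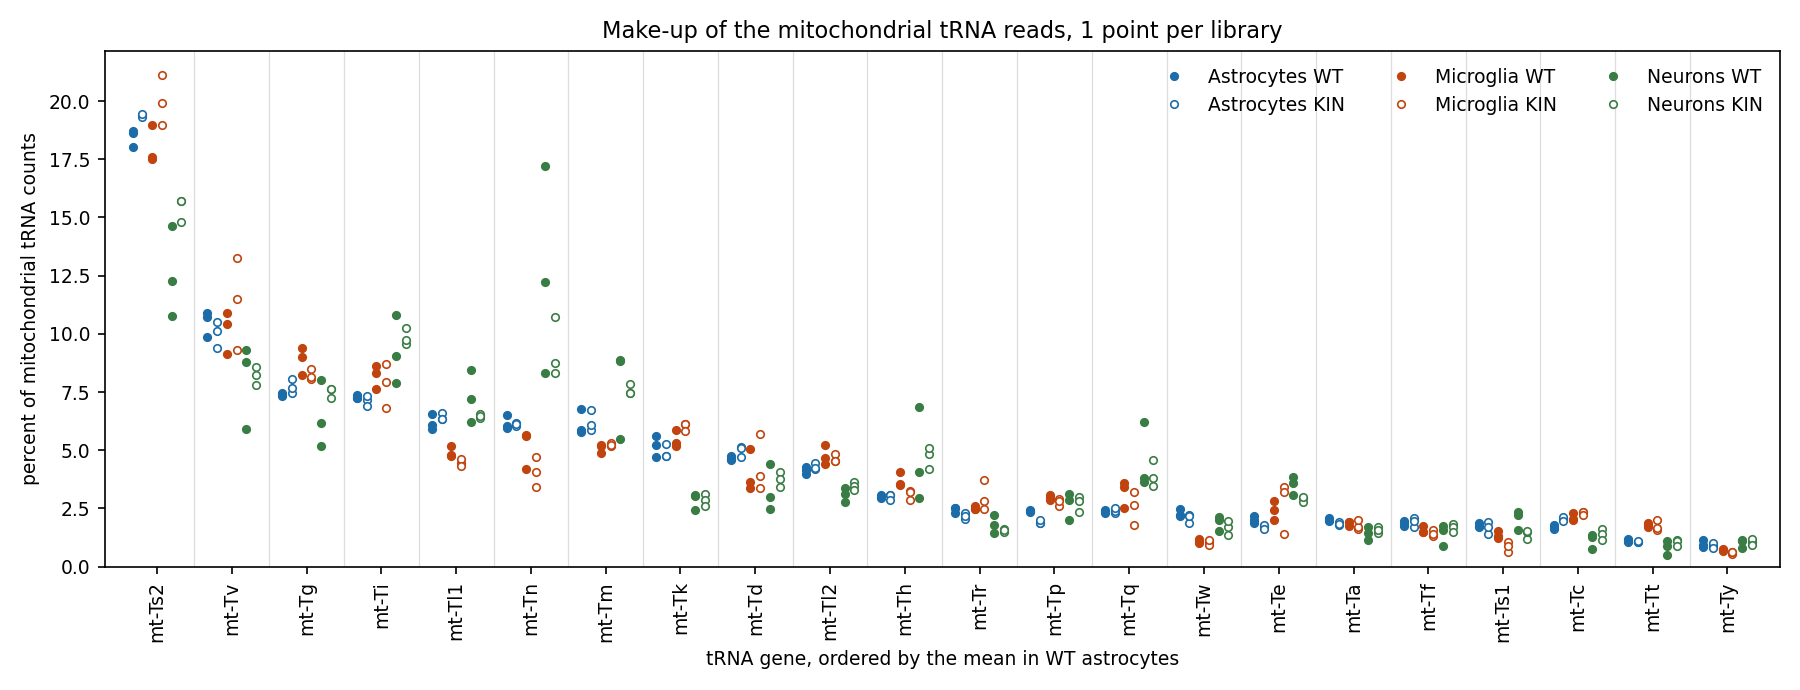
Share of each tRNA gene in the mitochondrial tRNA counts of a library, in percent, with 1 point per library (filled WT, open KIN). mt-Ts2 leads in all astrocyte and microglia libraries, mt-Tn reaches 17.2% in 1 WT neuron library, and mt-Tw is lowest in microglia.

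The make-up of the tRNA pool, which does not depend on scaling, also differed by fraction and is given as a description. mt-Ts2 took 18.0% to 18.7% of mitochondrial tRNA counts in WT astrocytes, 17.5% to 19.0% in WT microglia and 10.8% to 14.6% in WT neurons. mt-Tn took 5.95% to 6.50%, 4.19% to 5.67% and 8.31% to 17.2% in the same order, and 8.33% to 10.7% in KIN neurons. mt-Tk, for lysine, took 4.69% to 5.59%, 5.17% to 5.87% and 2.43% to 3.08%. In these tRNAs the neuron libraries of both genotypes, replicate 2 included, lay apart from both glial fractions.

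In 5 tRNAs (mt-Tw, mt-Tl1, mt-Tm, mt-Ty and mt-Tn) the microglia libraries of both genotypes lay below all others, and in mt-Tt they lay above, at 1.56% to 2.02%. For example, mt-Tw took 2.16% to 2.48% in WT astrocytes, 1.03% to 1.20% in WT microglia and 1.53% to 2.14% in WT neurons, and 0.943% to 1.16% in KIN microglia. The 8 tRNAs of the minus strand together took 18.7% to 20.1% of mitochondrial tRNA counts in WT astrocytes, 17.6% to 21.4% in WT microglia and 23.0% to 36.7% in WT neurons, and 23.2% to 25.8% in KIN neurons. The 16S rRNA outnumbered the 12S rRNA by 1.87 to 2.59 reads per read over the 18 libraries.

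The comparison of KIN with WT asked whether the expansion goes with altered small RNAs in each cell type. No mitochondrial gene was called in any fraction. The share of counts on mitochondrial tRNA was 0.766 of that in WT for KIN astrocytes and 1.27 of it for KIN microglia, and in neurons the direction turned with 1 library.

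**Figure D4:**
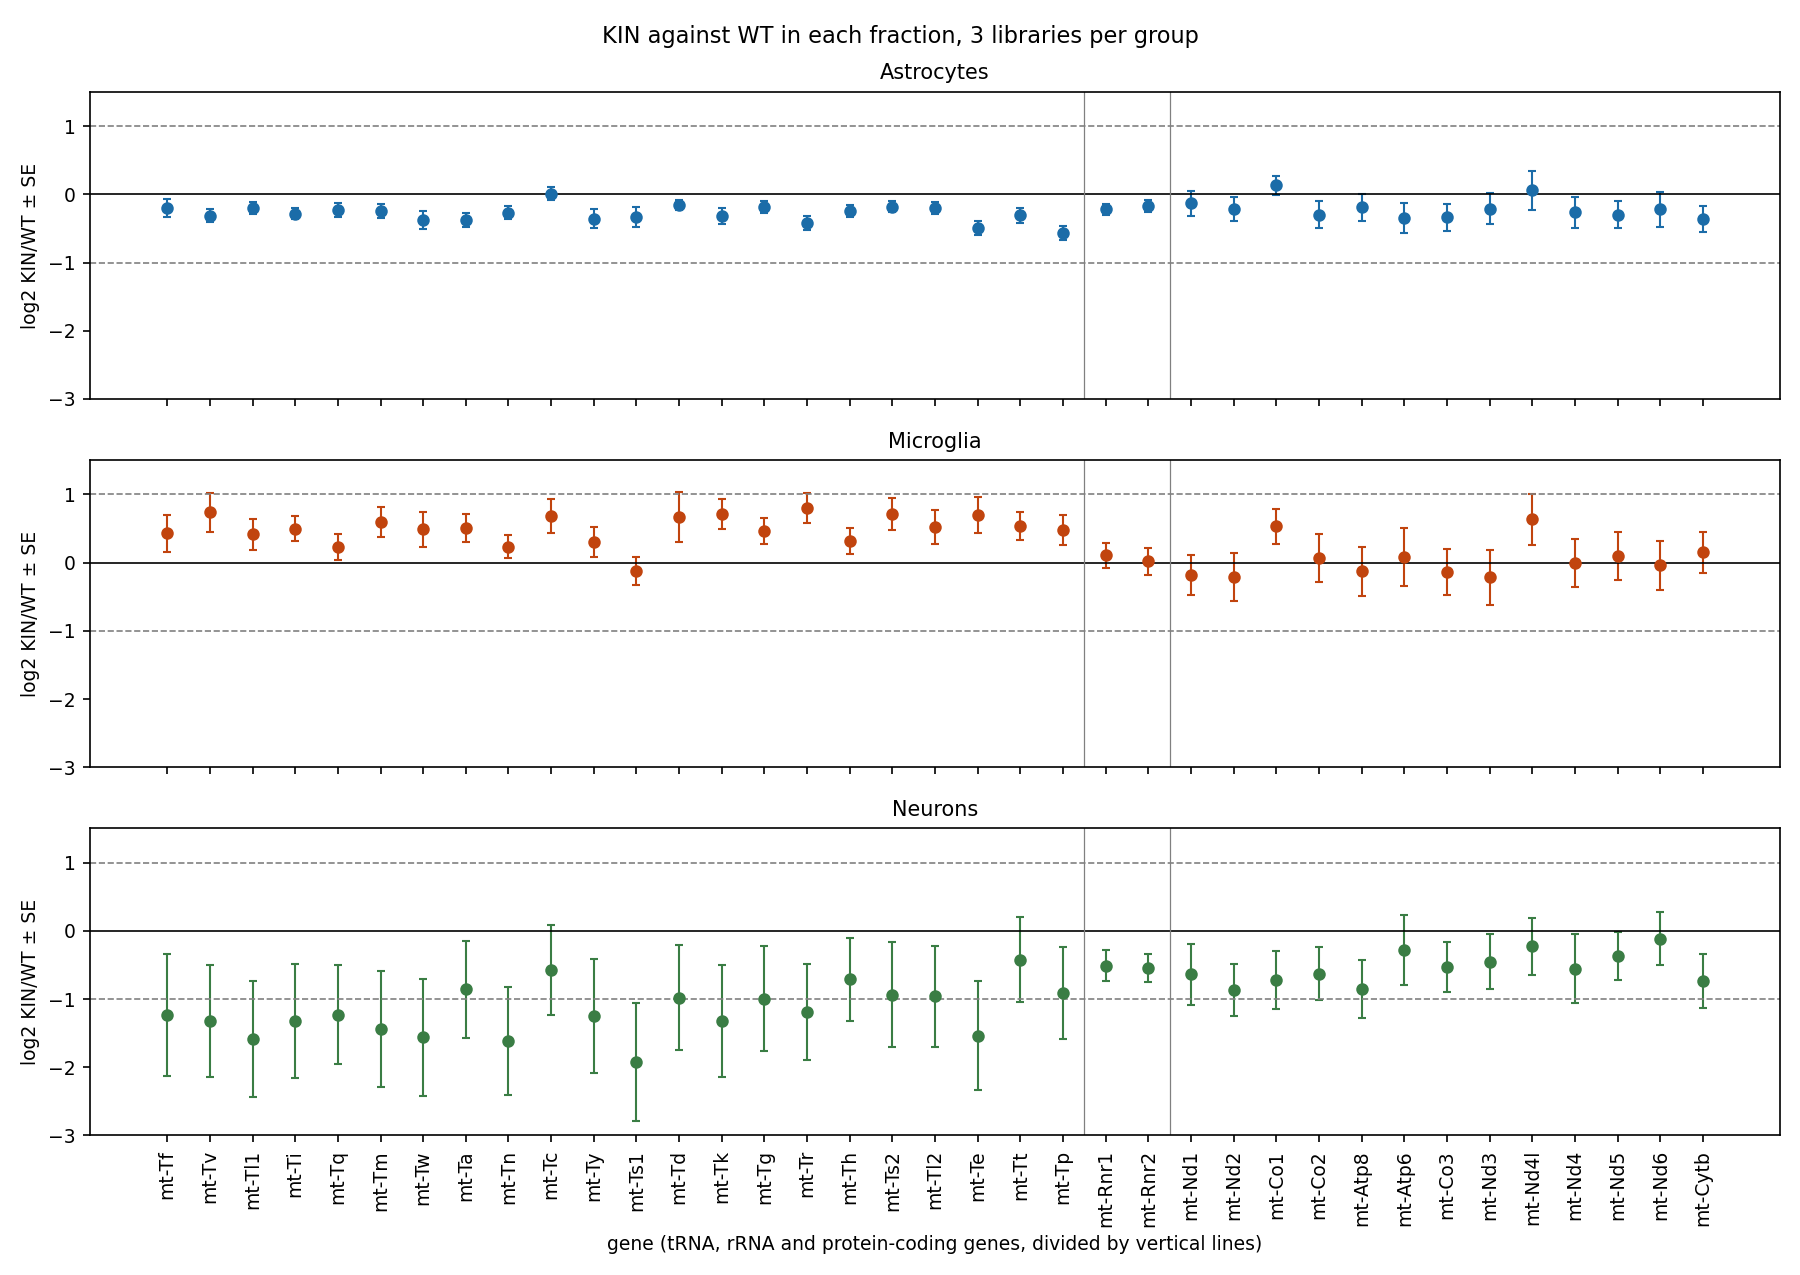
Log2 fold change of KIN over WT with its standard error for each of the 37 genes in astrocytes, microglia and neurons (edgeR, 3 libraries per group). Dashed lines mark the size of 1 needed for a call. Astrocyte values lie mostly just below 0, microglia tRNAs above 0 except mt-Ts1 at -0.12, and neuron tRNAs below 0 with the widest errors.

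In astrocytes the share of counts on mitochondrial tRNA was 7.39%, 7.09% and 6.93% in WT and 5.19%, 5.26% and 5.96% in KIN, a ratio of 0.766. That of rRNA was 0.681%, 0.719% and 0.670% against 0.591%, 0.526% and 0.547%, a ratio of 0.804. On the scale of library totals KIN lay below WT without overlap at 30 of 37 genes (21 tRNAs, both rRNAs and 7 protein-coding genes), where 25.9% of 5694 features did. With TMM factors the median log2 fold change was -0.28 over tRNAs, -0.20 over rRNAs and -0.22 over protein-coding genes, against -0.19 over all features tested. With no filter on low counts the medians were -0.06, 0.02 and -0.01. With the mitochondrial pool as library size the tRNA median was -0.03. tRNA formed a mean of 90.3% of that pool in WT and 89.8% in KIN astrocytes, so a value near 0 follows from this scaling.

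None of the 37 genes was called, where 8.18% of features were. Under TMM factors from mature miRNA, which moved the median of all features to -0.91, the tRNA median was -1.01 and 18 genes were called lower, where 26% of features were. An adjusted p of at most 0.05 with a lower level was reached by 4 tRNAs, where 6.83% of features reached it. mt-Tp had 1786, 1652 and 1653 CPM in WT and 968, 978 and 1181 in KIN, with a log2 fold change of -0.57 (SE 0.104, adjusted p = 0.0125, edgeR). mt-Te had 1395, 1541 and 1389 against 909, 949 and 959 CPM, with -0.49 (SE 0.102, adjusted p = 0.0198). Both lie on the minus strand, and neither overlapped between genotypes.

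mt-Tr had 1849.6, 1638 and 1757 CPM in WT and 1067, 1209 and 1285 in KIN, with a log2 fold change of -0.42 (SE 0.102, adjusted p = 0.0324, edgeR). mt-Ta had 1441, 1468 and 1399 against 937, 997 and 1092 CPM, with -0.38 (SE 0.101, adjusted p = 0.0412). mt-Ti, at 5455, 5125 and 5028 against 3715, 3853 and 4117 CPM, had -0.29 (SE 0.0824) and an adjusted p of 0.0505. At the other end mt-Tc, with 1256, 1159 and 1241 against 1071, 1119.8 and 1168 CPM, had a log2 fold change of 0.01 (SE 0.0899).

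The most abundant tRNA, mt-Ts2, had 13849.9, 12802 and 12907 CPM in WT and 10081, 10170.3 and 11592 in KIN astrocytes, with -0.18 (SE 0.0797, adjusted p = 0.139, edgeR). mt-Tv had 8051, 6996 and 7429 against 5253, 4950.4 and 6271. mt-Rnr1 had 2286, 2356 and 2288 CPM against 1917, 1737 and 1785 (log2 fold change -0.22, SE 0.0849, adjusted p = 0.101), and mt-Rnr2 4521, 4832 and 4409 against 3989.6, 3525 and 3683 (-0.17, SE 0.0871, adjusted p = 0.192). mt-Co1 overlapped, with 229, 169 and 218 against 188, 196 and 229 CPM. mt-Nd2, mt-Nd5 and mt-Nd6 had 80.0, 70.8 and 67.2, 50.3, 35.4 and 43.5, and 18.9, 11.7 and 16.7 CPM in KIN.

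Other cells moved with these values. The 7 astrocyte genes summed to 240.4 to 279.5 CPM in WT and 80.0 to 106 in KIN astrocytes, none of them at 0, with 7 of their 27 transcripts called lower and 0 positive. The 2 oligodendrocyte miRNAs (miR-219a-2-3p and miR-338-3p) summed to 830.4 to 1496 in WT and 1509.9 to 2148 in KIN. The microglia markers as a whole summed to 12.1 to 12.4 CPM in WT and 25.0 to 45.4 in KIN, and miR-142a-3p rose by 1.96 on the log2 scale (adjusted p = 0.00975, edgeR), while microglia transcripts stayed at 0.502 to 2.54 CPM, with Aif1 and Tmem119 at 0. Their part in the mitochondrial values was not tested.

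In microglia the share of counts on mitochondrial tRNA was 1.59%, 1.68% and 1.40% in WT and 2.09%, 1.87% and 2.00% in KIN, a ratio of 1.27, while that of rRNA was 0.336%, 0.256% and 0.325% against 0.294%, 0.272% and 0.234%, a ratio of 0.872. tRNA ranges did not overlap, and rRNA ranges did. Of the 37 genes, 11 lay above WT in KIN without overlap, all tRNAs, where 8.12% of 4940 features did, and mt-Ts1 lay below, where 18.5% did. The median log2 fold change was 0.50 over tRNAs, 0.06 over rRNAs and -0.01 over protein-coding genes, against -0.11 over all features. The tRNA median was 0.28 with library totals, 0.11 with factors from mature miRNA and 0.02 with the mitochondrial pool as library size. tRNA formed a mean of 82.2% of that pool in WT and 87.2% in KIN microglia, which holds its median near 0. The rRNA median turned to -0.18 with library totals.

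None was called, where 4.35% of features were, and without WT microglia replicate 2 a single gene, mt-Td for aspartate, was called higher, where 6.51% of features were. mt-Tr had 410.4, 419 and 345 CPM in WT microglia and 584, 699.6 and 494 in KIN, with a log2 fold change of 0.81 (SE 0.221, adjusted p = 0.0669, edgeR). mt-Tk had 931, 894 and 724 against 1279, 1148 and 1165 CPM, with 0.72 (SE 0.217, adjusted p = 0.0856). mt-Ts2 had 2789, 3189 and 2454 against 4409, 3548 and 3971, with 0.72 (SE 0.234, adjusted p = 0.0978). The KIN libraries of all 3 lay above the WT ones.

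mt-Tc had 316, 389.5 and 284 CPM in WT and 489.8, 438 and 446 in KIN microglia, with a log2 fold change of 0.68 (SE 0.244, adjusted p = 0.122, edgeR). mt-Ti had 1319, 1281 and 1209 against 1419, 1629.9 and 1584 CPM, with 0.50 (SE 0.180, adjusted p = 0.127). mt-Te was uneven, with 386, 336 and 393 CPM in WT and 292, 642 and 640.3 in KIN, and mt-Ts1 had 209, 209 and 215 against 126, 199 and 179. mt-Rnr1 (975, 799 and 906 against 856, 873 and 733 CPM) and mt-Rnr2 (2385, 1759.9 and 2347 against 2083, 1850.2 and 1602) overlapped, with log2 fold changes of 0.11 (SE 0.184) and 0.02 (SE 0.198).

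Cytoplasmic tRNA moved the same way in these libraries, with 9.74% ± 1.43 of counts in WT and 15.4% ± 1.30 in KIN microglia, so that mitochondrial tRNA formed 13.8% ± 0.808 of all tRNA in WT and 11.4% ± 1.31 in KIN (n = 3 each). The 2 microglia miRNAs, miR-142a-3p and miR-223-3p, summed to 2642 to 3160.1 CPM in WT and 2897 to 5699 in KIN, and the 7 microglia transcripts to 96.7 to 140.0 and 58.8 to 86.9, with a transcript of Cx3cr1 called lower (-1.60, SE 0.366). The neuronal miR-124-3p was called lower in KIN microglia (log2 fold change -1.28, SE 0.308, adjusted p = 0.0485, edgeR), and the 3 neuronal miRNAs summed to 60.7 to 159.3 CPM in WT and 47.0 to 55.1 in KIN. Red blood cell markers summed to 17.6 to 22.1 CPM in WT and 26.0 to 118 in KIN microglia, and none was called. The part of these cells in the mitochondrial values was not tested.

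In neurons all 37 genes, tRNA, rRNA and protein-coding alike, had a negative log2 fold change and none was called, as was true of the whole fraction (0% of 4535 features called by edgeR, 197 with an unadjusted p of at most 0.05, and 0 by DESeq2). KIN lay below WT without overlap at 5 genes (both rRNAs, mt-Co2, mt-Co3 and mt-Nd2), where 5.47% of features did, and ranges overlapped for every tRNA. Without WT neuron replicate 2 all 22 tRNAs turned positive, the tRNA median went from -1.23 to 0.71, and still none was called. Without replicate 1 of WT, 8 tRNAs were called lower, where 1.19% of features were. The share of counts on mitochondrial tRNA, KIN over WT, was 0.419 with all libraries and 1.70 without WT replicate 2. Red blood cell markers summed to 140.1 to 324 CPM in WT and 58.1 to 108 in KIN neurons, with 0 of 7 rows positive (median log2 fold change -1.20), and the oligodendrocyte markers to 9.16 to 141 and 8.65 to 12.4, with 0 of 2 rows positive (median -1.60), none of them called. Their part in the neuron values was not tested.

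The smallest p-values in neurons belonged to mt-Rnr2, with 4933, 6716 and 4597 CPM in WT and 3613, 3605 and 3951 in KIN (log2 fold change -0.54, SE 0.204, adjusted p = 0.917, edgeR), and mt-Nd2, with 45.4, 100.2 and 70.0 against 41.4, 32.5 and 43.7 (-0.87, SE 0.380). mt-Rnr1 was lower in every KIN library too (2191, 3459 and 2416 against 1746, 1809 and 2108 CPM, log2 fold change -0.51, SE 0.229). Without WT replicate 2 they were -0.40, -0.60 and -0.33, none of them called. mt-Ts1, with 52.8, 949 and 86.4 against 83.2, 90.6 and 109 CPM, and mt-Tn, with 409, 4933 and 461 against 605, 504 and 775, had log2 fold changes of -1.93 (SE 0.867) and -1.62 (SE 0.787), which became 0.40 and 0.48. KIN neurons were even, for example at mt-Ts2 with 1088, 950.0 and 1069.7 CPM against 256, 4942 and 812 in WT.

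The differences between these genotype effects were tested as interactions of genotype and fraction over all 18 libraries. No mitochondrial gene was called for microglia minus astrocytes (0.146% of 8204 features called), neurons minus astrocytes (0%) or neurons minus microglia (1.23%). At an unadjusted p of at most 0.05 these comparisons held 0, 0 and 11 of the 37 genes by edgeR. Of the 8204 features tested, 594, 749 and 998 reached that limit. DESeq2 called none of the 37 genes. Without WT neuron replicate 1, 20 genes (19 tRNAs and 1 protein-coding gene) were called lower for neurons minus microglia, where 2.21% of features were. The red blood cell miRNA miR-451a was called lower in that comparison with all libraries (-3.32, SE 0.791, adjusted p = 0.0318, edgeR). For microglia minus astrocytes the log2 difference was positive at all 22 tRNAs, with a median of 0.75 and the lowest adjusted p at 0.828. The median was 0.07 with the mitochondrial pool as library size, a scaling that holds tRNA near 0 in these 2 fractions.

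Protein-coding genes have nearly identical copies in the nuclear genome, and reads were divided between them. Gm28661, a pseudogene on chromosome 1 that matches mt-Co2 at 100% identity over 681 bases, held 1538 counts over the 18 libraries against 1724 at mt-Co2. Gm28437 held 1135 against 1468 at mt-Co3, Gm10925 849 against 989 at mt-Atp6, and Gm10222 544 against 527 at mt-Nd4l, a complex I subunit. In each of these pairs the copy took 40.0% to 58.8% of the joint counts in every group, and counts of mt-Co1, mt-Nd3, mt-Nd4, mt-Nd2 and mt-Nd5 were touched less, at 1.91% to 23.5% over all libraries. Levels of these protein-coding genes are therefore uncertain one by one. No mitochondrial gene was called in a KIN comparison before or after copies of at least 99% identity were summed into their gene. That bears on the KIN comparisons only, where there was no call to lose. No such copy of a tRNA or rRNA gene was listed with counts in the table.

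Nuclear genes that serve these RNAs were examined by lists chosen for this work, as fragments of their transcripts. Of 22 mitochondrial tRNA synthetases 20 were listed, and 3 transcripts of a single gene, Lars2 (which charges leucine tRNA), passed the filter and shared 107461 counts. Lars2 transcripts were called higher in WT neurons than in WT astrocytes (3 of 3, log2 fold changes of 2.26 to 3.03) and than in WT microglia (3 of 3, 1.64 to 2.16), and 1 of 3 in WT microglia against WT astrocytes (1.02, SE 0.353, adjusted p = 0.0438, edgeR). The list, of which only Lars2 passed the filter, summed to 3752 to 7081 CPM in WT neurons, with the lowest value in replicate 2. It summed to 702.9 to 1136.6 in WT astrocytes and to 869.8 to 1946 in WT microglia. Counts per transcript do not show where in Lars2 the reads lie. Whether they reflect its mRNA was not tested, and they do not speak for the other synthetases. No Lars2 transcript was called between KIN and WT.

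Of 77 nuclear subunits of oxidative phosphorylation 62 were listed. Between 2 and 10 genes passed the filter in a comparison of groups and 14 in the fit of 18 libraries, and none was called for KIN against WT or for a difference of KIN effects. In WT microglia against WT astrocytes 1 of 5 was called lower (Sdha, of succinate dehydrogenase, -1.81, SE 0.549), in WT neurons against WT astrocytes 1 of 10 was called higher (Ndufa13, of complex I, 2.84, SE 0.755), and against WT microglia 3 of 7 were (Ndufa13, Ndufa2 and Cox6a1). None of the 20 genes for processing and modifying mitochondrial tRNA passed the filter, with summed levels of at most 9.39 CPM, and of the 27 genes for mitochondrial transcription and RNA turnover at most 2 did, none called.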

How the data were processed

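Small RNA was sequenced from 18 libraries (6 groups of 3). The authors trimmed reads with cutadapt 4.6, kept those of at least 20 bases, and aligned them with Bowtie2 2.4.4 in successive rounds to miRNA, tRNA, piRNA and then Ensembl transcripts of mm39. HTSeq 2.0.2 counted them on either strand and at any mapping quality. Reads shared with a nuclear tRNA or piRNA were thus taken before a mitochondrial gene could receive them. The kit carries molecular identifiers, but whether they were collapsed is not given in the sources used here. The deposited values are raw counts per feature. The same table holds the authors' log2 fold changes and p-values and, over all libraries together, 36 columns of normalized values, none of them used. Read lengths are not in the table, so whole tRNAs and fragments cannot be told apart.

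Counts were tested across all features with edgeR 4.0.16 (quasi-likelihood, TMM factors, R 4.3.3) on features that reached 5 counts in 2 or more libraries of the fit, with Benjamini-Hochberg adjustment over all features and 3 libraries per group. KIN was compared with WT in each fraction and WT fractions with each other, and differences of the KIN effect were tested in 1 fit of 18 libraries. The tests were run on simulated data as a check. In astrocytes 97% of simulated log2 changes of 2 were recovered, in microglia 94%, in neurons 66% and for microglia minus astrocytes 48%. For simulated log2 changes of 1.5 the values were 81%, 72%, 29% and 24% in the same order, and smaller changes were not simulated. Alternatives were DESeq2 1.42.0, 3 other scalings and library totals without mitochondrial rows, no filter, a replicate block, 1 fit of 18 libraries and leaving out each library. Copies with at least 99% identity, found with blastn 2.17.0, were summed into their gene as an alternative chosen after seeing the data. Named with every library were the rRNAs, the 3 most abundant tRNAs and protein-coding genes, mt-Nd6, and the 5 genes with the smallest p in each comparison between groups. Further genes (mt-Te and mt-Ts1 in microglia, mt-Tn and mt-Te in neurons) and those of the make-up paragraphs were chosen after their values were seen. The members and lists were chosen with earlier results of these data known. Per the methods, fractions were taken from 3 WT and 3 KIN mice, so that the libraries of a group are separate animals, and fractions of 1 brain are not independent of each other. The labels number biological replicates within each group but do not state which fractions share a brain.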

Additional observations from a re-analysis of the deposited data

Results flagged for a closer look

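For 10 tRNA genes (mt-Ta, mt-Tg, mt-Th, mt-Ti, mt-Tk, mt-Tm, mt-Tp, mt-Tr, mt-Ts2 and mt-Tt) every KIN astrocyte library lay below every WT astrocyte library and every KIN microglia library above every WT microglia library. The difference of the 2 KIN effects, microglia minus astrocytes, was 0.53 to 1.20 on the log2 scale by edgeR for these genes, with the lowest unadjusted p at 0.0950 and the lowest adjusted p at 0.828, so none passed the test. Of 3891 features tested in both fractions, 24 (0.617%) showed this pattern, these 10 among them.

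Reads were also counted at piRNA entries that lie inside mitochondrial genes, in a round before the genes themselves. mmu-piR-7914, inside mt-Te on the same strand (chrM:14077-14100), held 1038 counts over the 18 libraries, and mmu-piR-1563, inside mt-Rnr2 (chrM:2410-2432), held 5. These counts are not part of the values given for mt-Te and mt-Rnr2.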

How the results depend on the processing

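Among 38 pairs of a named gene and a comparison, each refitted under the alternatives, 487 refitted log2 fold changes had the same direction and side of the threshold, 33 lost the call, 21 gained it and 29 changed sign. Of 300 refitted counts of called genes, 267 stayed within 1.5 times of the value reported. The cause of the other changes was not tested.

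With TMM factors from mature miRNA, 18 genes were called lower in KIN astrocytes, where 26% of features were. In WT neurons against WT astrocytes 13 were called higher and 2 lower, where 49.5% and 3.01% of features were. In WT neurons against WT microglia 25 were called higher, with the median of all features raised as given above. With the mitochondrial pool as library size, WT microglia against WT astrocytes gave 3 higher and 1 lower, WT neurons against WT astrocytes 11 higher and 3 lower, and WT neurons against WT microglia 0 higher and 2 lower (edgeR, 8 genes at an unadjusted p of at most 0.05). Library totals gave 5 higher in the last of these. No filter on low counts gave 6 lower in KIN neurons, 23 lower in WT neurons against WT astrocytes, 0 higher and 2 lower in WT neurons against WT microglia (edgeR, 11 genes at an unadjusted p of at most 0.05), and 2 lower for the KIN effect in neurons minus microglia. One fit of 18 libraries gave 23 and 2 lower in the WT neuron comparisons, and DESeq2 1 lower against WT microglia. Counts in this paragraph that stand without a share of all features describe the setting only and are not set against that share.

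Samples with the same number correlated at -0.24 to 0.18 between KIN and WT and at 0.0085 to 0.33 between WT fractions, where all 9 were positive. Samples with different numbers correlated at -0.28 to 0.29 between KIN and WT and at -0.31 to 0.16 between WT fractions. Fractions were isolated from single brains, but the labels do not tie a number to a brain and not every correlation between fractions passed 0.1, so the fits reported have no block. A replicate block gave 23 lower in WT neurons against WT astrocytes and 12 lower against WT microglia, where 22.8% and 16.1% of features were.

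Without single libraries, the genes called ranged from 0 to 1 higher in KIN microglia, 0 to 8 lower in KIN neurons, 2 to 25 lower in WT neurons against WT astrocytes, 1 to 4 higher and 0 to 21 lower in WT neurons against WT microglia, and 0 to 20 lower for the KIN effect in neurons minus microglia. These ranges are not set here against the share of features called in each fit. The log2 fold change in KIN neurons ranged from -2.40 to 0.40 for mt-Ts1 and from -2.05 to 0.48 for mt-Tn, and that in KIN microglia from -0.017 to 0.20 for mt-Rnr1 and from -0.18 to 0.13 for mt-Rnr2. In WT neurons against WT astrocytes it ranged from -0.19 to 0.28 for mt-Rnr1 and from -0.14 to 0.33 for mt-Rnr2. The ratio of neuron tRNA shares ranged from 0.294 to 1.70.

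Besides mt-Ts1 and mt-Tn in KIN neurons and the ranges above, these signs turned. mt-Co1 in WT neurons against WT astrocytes was 0.37 with the mitochondrial pool and 0.41 with miRNA factors. In KIN astrocytes mt-Rnr1 was 0.032 and mt-Rnr2 0.084 with the pool, and mt-Rnr2 0.044 with no filter. In KIN microglia mt-Rnr1 was -0.12, -0.39 and -0.28 and mt-Rnr2 -0.23, -0.51 and -0.37 with library totals, the pool and miRNA factors, and mt-Rnr2 -0.049 with no filter and -0.0010 with the replicate block. In WT microglia against WT astrocytes the pool gave 0.70 and 0.99 for mt-Rnr1 and mt-Rnr2. In astrocytes and microglia the pool is mostly tRNA, so this scaling sets an rRNA against tRNA. In WT neurons against WT astrocytes mt-Rnr1 was -0.24 with no filter, -0.019 with the block and -0.13 in the fit of 18 libraries, and mt-Rnr2 -0.23 with no filter and -0.11 in that fit.

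The depth of WT neurons, at 1211118 to 1956491 counts, was the lowest, and protein-coding genes had as few as 9 counts in a library.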
